A study of Mus musculus with 2 samples.

Results

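T cell receptor alpha and beta variable segments were followed in single T cells of the mouse small intestine, in 1 library labelled model and 1 labelled control. All rows of the count matrices whose symbol starts with Trav (130 alpha variable segments) or Trbv (35 beta variable segments) were taken, 165 of 56980 rows in all, and their use was counted in cells with at least 1 UMI (unique molecular identifier, a tag that marks 1 captured RNA molecule) of Cd3e, Cd3d or Cd3g, called CD3-positive here. Both libraries were made by the 10x Genomics droplet method from small intestine freed of mesentery and Peyer's patches and digested to single cells; the labels state no strain, age or treatment behind the word model, nor the number of animals pooled. The model library held 11468 barcodes and 76701215 UMIs, of which 7913 cells passed the filters and 3027 were CD3-positive; the control library held 10259 barcodes and 61370270 UMIs, of which 7329 passed and 2112 were CD3-positive. The libraries shared 28 barcode sequences, of which 0 were CD3-positive in both. With 1 library in each group there was no replicate and no test was possible: intervals below are exact 95% intervals that cover counting error only, and differences between animals or preparations cannot be told apart from differences between model and control.

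A T cell builds its antigen receptor by joining 1 variable segment to short joining segments, and in the beta chain also a diversity segment, ahead of a constant region; Trac encodes the constant region of the alpha chain, Trbc1 and Trbc2 those of the beta chain, and Trdc that of the delta chain. The delta genes lie inside the alpha locus, so some variable segments, marked dv in their symbol, can be joined to either chain, and joining the alpha chain removes the delta genes from that chromosome. Intraepithelial lymphocytes of the small intestine are rich in gamma delta T cells and in cells that carry the Cd8a but not the Cd8b1 chain of the CD8 coreceptor, beside conventional cells with both chains.

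The mouse alpha locus holds long duplicated blocks, whose copies carry the letters d and n in the symbol. The 3 copies of Trav16 are shown because the results on alpha segments turn on them. The first 300 bases of their variable exons of 301 bases lie on the plus strand at chr14:53743405-53743704 (Trav16), chr14:53351321-53351620 (Trav16n) and chr14:53047521-53047820 (Trav16d-dv11) in GRCm38, as annotated by GENCODE, and capitals mark the 6 positions at which the copies differ. Counted from 1 at the first printed base, Trav16n differs from Trav16 by A51G, A193T, A194G and T251C, and Trav16d-dv11 differs from Trav16 by G94A, A193T, A194G, T251C and A272G.
Trav16: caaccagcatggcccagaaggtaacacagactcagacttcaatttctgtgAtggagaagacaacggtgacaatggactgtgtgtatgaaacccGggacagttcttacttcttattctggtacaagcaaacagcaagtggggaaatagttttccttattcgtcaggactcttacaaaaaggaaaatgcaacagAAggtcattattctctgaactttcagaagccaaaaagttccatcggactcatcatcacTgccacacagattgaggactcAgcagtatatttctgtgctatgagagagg
Trav16n: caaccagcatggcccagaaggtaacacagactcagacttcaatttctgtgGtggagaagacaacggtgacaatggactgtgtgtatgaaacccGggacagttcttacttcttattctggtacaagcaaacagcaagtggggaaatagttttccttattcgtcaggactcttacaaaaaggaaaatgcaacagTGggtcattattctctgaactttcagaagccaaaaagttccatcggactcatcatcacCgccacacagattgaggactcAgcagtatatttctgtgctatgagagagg
Trav16d-dv11: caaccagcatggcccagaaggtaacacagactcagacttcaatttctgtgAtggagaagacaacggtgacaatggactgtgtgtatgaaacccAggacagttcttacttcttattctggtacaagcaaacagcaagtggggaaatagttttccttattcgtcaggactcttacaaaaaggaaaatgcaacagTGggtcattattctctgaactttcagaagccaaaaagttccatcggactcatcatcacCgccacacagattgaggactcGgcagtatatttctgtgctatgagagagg

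The last 60 bases of the variable exon of the segments described below are shown because this is the end that joins the rest of the receptor; capitals mark the codon of the conserved cysteine that opens the antigen-binding loop of each chain. The Trbv segments lie on chromosome 6 and the Trav segments on chromosome 14, and all sequences are those of the GRCm38 reference, not of these mice.
Trbv19: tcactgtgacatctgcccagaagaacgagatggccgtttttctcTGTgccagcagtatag
Trbv16: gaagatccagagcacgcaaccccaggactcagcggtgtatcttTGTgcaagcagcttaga
Trbv3: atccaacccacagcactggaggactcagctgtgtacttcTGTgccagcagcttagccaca
Trbv12-2: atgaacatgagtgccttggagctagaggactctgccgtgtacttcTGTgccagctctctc
Trbv15: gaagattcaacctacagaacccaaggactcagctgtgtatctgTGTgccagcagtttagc
Trbv13-2: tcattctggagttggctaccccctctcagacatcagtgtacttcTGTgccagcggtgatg
Trav14-2: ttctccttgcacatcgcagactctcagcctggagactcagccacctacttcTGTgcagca
Trav13-4-dv7: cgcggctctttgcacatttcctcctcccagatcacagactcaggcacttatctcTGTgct

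Variable segments were seen in few of the CD3-positive cells. Many of these cells also held epithelial RNA, with Epcam, an epithelial adhesion gene, in 46.5% in model and 57.2% in control. Of the 165 rows, 67 had a UMI in a CD3-positive model cell and 51 in a CD3-positive control cell, 41 in both libraries and 88 in neither. Trav UMIs numbered 164 in model and 119 in control cells, and Trbv UMIs 138 in model and 95 in control cells (302 of 17147271 UMIs of CD3-positive model cells and 214 of 10740247 of control cells for both chains). At least 1 Trav UMI was found in 145 of 3027 model cells (4.79%, interval 4.06 to 5.61) and in 96 of 2112 control cells (4.55%, 3.70 to 5.52). At least 1 Trbv UMI was found in 131 model cells (4.33%, 3.63 to 5.11) and in 83 control cells (3.93%, 3.14 to 4.85). The ratio of the model share to the control share was 1.05 for Trav (0.809 to 1.38) and 1.10 for Trbv (0.830 to 1.47), so neither chain differed by more than counting error. The constant regions, read from the same cells, were far more often seen: Trac in 53.8% of model and 40.6% of control cells, and Trbc1 or Trbc2 in 2221 model cells (73.4%) and 1267 control cells.

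The variable UMIs kept mostly to CD3-positive cells. In model, 269 of the 3027 CD3-positive cells (8.89%, median depth 2882 UMIs) held a variable-segment UMI, against 1 of the 4886 CD3-negative cells that passed the filters (0.0205%, median depth 5870.5). In control, 173 of the 2112 CD3-positive cells (8.19%, median depth 2852.5) held one, against 9 of the 5217 CD3-negative cells (0.173%, median depth 4308). In CD3-negative cells with Epcam, Trav was seen in 0 of 3757 model cells (exact upper bound 0.0981%) and in 4 of 4285 control cells (0.0933%). Trbv was seen there in 1 model cell (0.0266%) and 3 control cells (0.0700%). Trbv UMIs were found together with their constant region: 124 of the 131 Trbv-positive model cells and 82 of the 83 control cells also had Trbc1 or Trbc2. Of the Trav-positive cells, 113 of 145 in model and 68 of 96 in control also had Trac.

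The CD3-positive cells were split by UMIs of Trdc and of the coreceptors. Cells with Trdc formed 1 class. The others were called Cd8aa (Cd8a without Cd8b1 or Cd4), Cd8ab (Cd8a and Cd8b1), Cd4 (Cd4 alone), none (no coreceptor) or other. The classes held 1234 Trdc, 815 Cd8aa, 79 Cd4, 205 Cd8ab, 648 none and 46 other cells in model, and 810 Trdc, 418 Cd8aa, 38 Cd4, 103 Cd8ab, 723 none and 20 other cells in control. A class rests on captured UMIs, so a cell without Trdc or Cd8b1 UMIs may still transcribe the gene. In Cd4 cells the myeloid list (Lyz2, C1qa, Cd74 and Csf1r) summed to 23.8 per 10000 UMIs in model and 21.5 in control. In Cd8aa cells it summed to 3.26 in model and 3.80 in control. The T cell list summed to 35.5 in model and 18.5 in control Cd4 cells, against 51.2 in Cd8aa cells of each library. The Cd4 class was thus not shown to hold CD4 T cells alone. Intraepithelial markers were common in both libraries, with Itgae, the integrin chain that binds epithelial cadherin, in 64.6% of model and 53.6% of control CD3-positive cells, and Gzma, a cytotoxic granule protease, in 83.7% of model and 81.3% of control cells.

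Of the 3 largest classes, Trdc, Cd8aa and none, both chains were most often seen in Cd8aa cells and least often in none cells at full depth. Among Cd8aa cells, Trav was seen in 70 of 815 model cells (8.59%, 6.76 to 10.7) and 27 of 418 control cells (6.46%, 4.30 to 9.26), and Trbv in 64 model cells (7.85%) and 34 control cells (8.13%). Among the none cells, Trav and Trbv were each seen in 11 of 648 model cells (1.70%, 0.850 to 3.02) and each in 5 of 723 control cells (0.692%, 0.225 to 1.61), a ratio of none to Cd8aa cells for Trav of 0.198 in model (0.094 to 0.376) and 0.107 in control (0.032 to 0.282). The none cells also differed from the rest in other respects: Trac was in 17.6% of them in model and 8.99% in control, Epcam in 67.4% in model and 72.3% in control, at least 10 UMIs of Igha plus Jchain, the chains of secreted IgA made by plasma cells, in 16.7% in model and 50.5% in control, and their median depth was 3091 UMIs in model and 1480 in control. With every cell thinned to 1000 UMIs and the classes assigned anew, none cells were the lowest only for Trav in control: Trav was in 1.91% of none and 1.77% of Trdc cells in model, and in 0.965% of none and 1.21% of Trdc cells in control. Thinned Trbv was in 1.75% of none and 0.827% of Trdc cells in model, and in 2.32% of none and 1.01% of Trdc cells in control. The thinned ratio of none to Cd8aa cells for Trav was 0.688 in model (0.308 to 1.46) and 0.336 in control (0.092 to 1.05), with intervals that include 1. The thinned none class was not the same set of cells. Trac was in 32.3% of it in model and 21.2% in control, against 17.6% and 8.99% at full depth. The part of this change of class in the thinned values was not tested. In Cd4 cells, Trav was seen in 2 of 79 model and 1 of 38 control cells, and Trbv in 5 model and 4 control cells, too few for any comparison of segments.

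In Cd8ab cells the libraries stood apart in Trav detection. Trav was seen in 12 of 205 Cd8ab model cells (5.85%, 3.06 to 10.0) and in 19 of 103 Cd8ab control cells (18.4%, 11.5 to 27.3), a ratio of 0.317 (0.140 to 0.689). Trbv was seen in 17 model cells (8.29%) and 16 control cells (15.5%), a ratio of 0.534 (0.254 to 1.13), which counting error alone covers. Trac was in 77.1% of the Cd8ab model cells and 77.7% of the Cd8ab control cells, and their median depth was 2883 UMIs in model and 3443 in control. When every cell was thinned to 1000 UMIs, Trav was left in 1 of 73 Cd8ab model cells and 0 of 28 Cd8ab control cells, so the difference could not be followed at equal depth. RNA of other cell types also differed: in Cd8ab cells the goblet list summed to 1.84 per 10000 UMIs in model and 14.6 in control, the plasma cell list to 19.4 in model and 77.9 in control, with Mzb1 at 0 in both, and the enterocyte list to 35.5 in model and 23.4 in control; their part in the Trav difference was not tested. Of the 19 Trav-positive Cd8ab control cells, 8 held the Trav16 row described below.

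**Figure D1:**
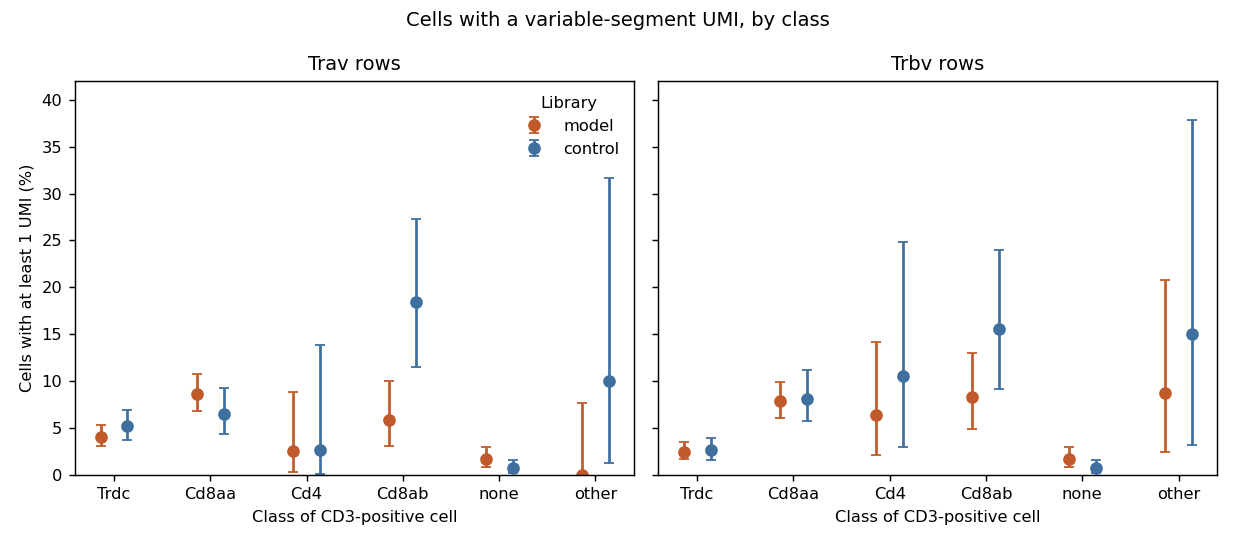
Share of CD3-positive cells with at least 1 Trav UMI (left) or Trbv UMI (right), in percent, by class, for the model library (orange) and the control library (blue); points are shares and bars exact 95% intervals for counting error. Trav reached 18.4% in Cd8ab control cells and 5.85% in Cd8ab model cells. At the full depth plotted, none cells were lowest of the 3 largest classes in both panels. Thinning to 1000 UMIs, with the classes assigned anew, did not keep this order for model Trav or for Trbv in either library.

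Beta chain UMIs were spread over 21 rows in model and 19 in control. Trbv19 was seen in 19 model and 10 control cells, Trbv16 in 14 model and 11 control cells, and Trbv3 in 15 model and 9 control cells. These are 0.628%, 0.463% and 0.496% of the CD3-positive model cells and 0.473%, 0.521% and 0.426% of the CD3-positive control cells, and the intervals of all 3 overlap, so their order is not set by these counts. Next came Trbv12-2 with 11 model and 6 control cells, Trbv15 with 4 model and 10 control cells, Trbv13-2 with 10 model and 4 control cells, Trbv1 with 6 model and 6 control cells, Trbv2 with 8 model and 3 control cells, Trbv20 with 8 model and 2 control cells, and Trbv17 with 5 model and 4 control cells. Counting each row found in a cell as 1 detection, the row with most cells took 14.4% of the Trbv detections in model (Trbv19) and 12.9% in control (Trbv16). The chance that 2 detections drawn from a library were of the same Trbv row was 6.97% in model and 6.78% in control, the same as for 14.3 equally used rows in model and 14.8 in control.

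A row was called where the shares of CD3-positive cells differed at least 1.5-fold with an interval that excluded 1, among rows with at least 20 positive cells over both libraries. By this rule 4.75% of 14658 genes tested in CD3-positive cells were called between model and control, 2.25% higher and 2.50% lower in model. Only 3 Trbv rows reached 20 cells (Trbv19, Trbv16 and Trbv3) and 0 were called, with ratios of 1.33 for Trbv19 (0.586 to 3.19), 0.888 for Trbv16 (0.375 to 2.16) and 1.16 for Trbv3 (0.477 to 3.01). With a minimum of 10 cells, where 5.15% of 16431 genes were called, 2.26% higher and 2.89% lower in model, 9 Trbv rows were tested and 1 was called: Trbv15, found in 0.132% of model and 0.473% of control cells, a ratio of 0.279 (0.064 to 0.968). Trbv31, the only beta variable segment that lies beyond the constant genes and in the opposite orientation, was seen in 2 model and 0 control cells. Of the 13 Trbv rows annotated as pseudogenes in GENCODE 2 held UMIs, Trbv24 in 5 model and 2 control cells and Trbv22 in 1 model and 0 control cells.

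**Figure D2:**
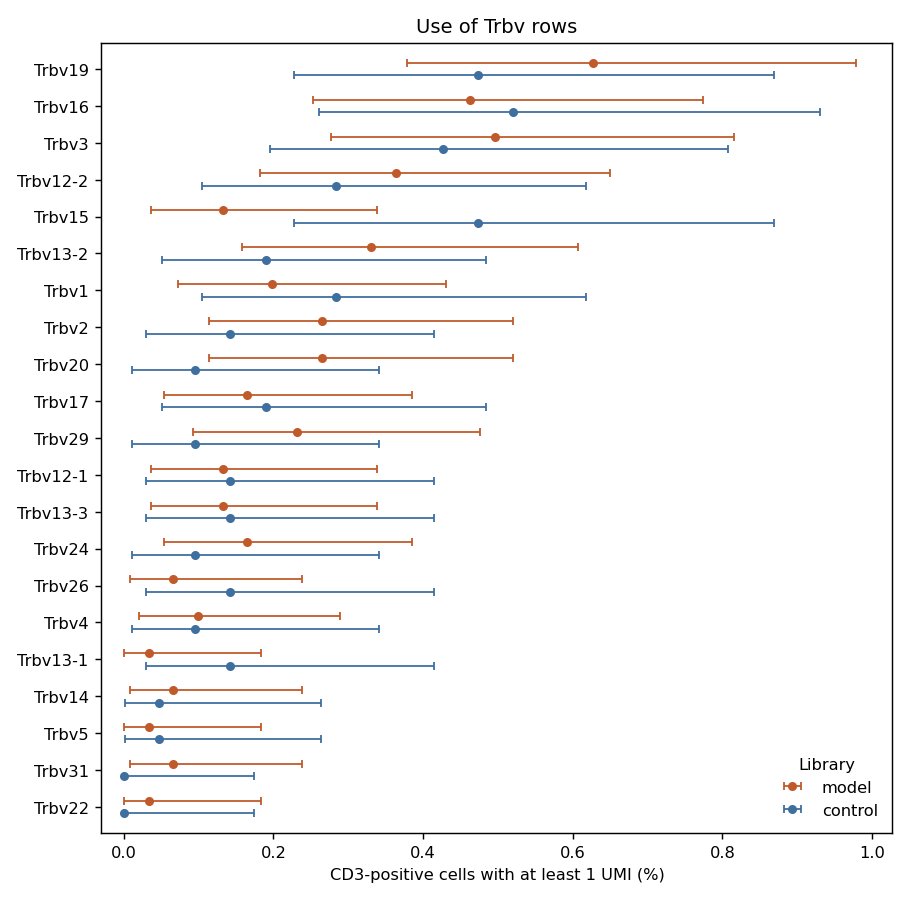
Share of CD3-positive cells with at least 1 UMI of each Trbv row, in percent, for the model library (orange, upper) and the control library (blue, lower), with exact 95% intervals; the 21 rows seen in either library are ordered by the mean of both shares. Trbv19, Trbv16 and Trbv3 lead with overlapping intervals, and Trbv15 lies at 0.132% in model and 0.473% in control.

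In the alpha chain, the libraries differed in the use of Trav16 and of its n copy. Trav16 was found in 15 model cells (18 UMIs, at most 2 in 1 cell) and 32 control cells (49 UMIs, at most 5 in 1 cell), 0.496% of model cells (0.278 to 0.816) and 1.52% of control cells (1.04 to 2.13). The share was 3.06-fold lower in model (1.61 to 6.08). The 3 Trav rows with at least 20 cells were Trav16, Trav15-2-dv6-2 and Trav13-4-dv7. Of these only Trav16 was called, where 4.75% of 14658 genes were called by the same rule. Its n copy, Trav16n, went the other way, with 16 model cells (20 UMIs) and 1 control cell (1 UMI), a ratio of 11.2 (1.73 to 468). Summed over the 3 copies, the family was found in 32 model cells (1.06%) and 34 control cells (1.61%), a ratio of 0.657 (0.392 to 1.10), and was not called. How reads that match more than 1 copy were counted is not given in the sources used here.

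Trav14-2 was also found mostly in the model library. It had 15 model cells, each with 1 UMI, and 1 control cell, a ratio of 10.5 (1.61 to 441). Trav13-4-dv7 had 15 model and 5 control cells, a ratio of 2.09 (0.723 to 7.36). Trav13-2 had 8 model and 0 control cells, under the 10 positive cells of the lower minimum, and was not tested. With the control 0 replaced by 3 cells the ratio was 1.86, which leaves out counting error in the model cells. Trav3-3 had 3 model and 5 control cells, a ratio of 0.419 (0.065 to 2.15). Trav16n and Trav14-2 were called with Trav16 when 10 positive cells sufficed (3 of 5 Trav rows tested, against 5.15% of 16431 genes). With 1 control cell each, Trav16n and Trav14-2 reached that minimum only through the model library, where they were high. The 3 of 5 is therefore no measure of an excess of called Trav rows. As family sums, 4 Trav families were tested. Trav13 had 33 model and 9 control cells (ratio 2.56, 1.20 to 6.08) and was called. Trav14 had 17 model and 3 control cells (3.95, 1.14 to 21.1) and was also called. Trav15 and Trav16 were not called. No share over all genes was computed for family sums.

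Segments of invariant T cells had next to no UMIs. Trav11 and its copy Trav11d, which encode the alpha chain of invariant natural killer T cells, had no UMI in either library. Of the stretches of 90 bases along their transcripts, 0.394% for Trav11 and 0% for Trav11d are found in no other variable row, so few reads could be assigned to either row alone and the 0 sets no limit on their use. Trav1, used by mucosal-associated invariant T cells, was seen in 1 model and 0 control cells. The joining segments of these chains, Traj18 and Traj33, also had no UMI. Zbtb16, the transcription factor of both lineages that some other intestinal lymphocytes carry as well, was in 52 model cells (1.72%) and 20 control cells (0.947%), a called ratio of 1.81 (1.06 to 3.21).

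Over all alpha rows, 46 were seen in model and 32 in control. The row with most cells took 10.8% of the Trav detections in model (Trav16n) and 32.7% in control (Trav16). Draws of 2 detections hit the same row with a chance of 5.30% in model and 12.4% in control, as for 18.9 equally used rows in model and 8.06 in control. These values count near-identical copies as separate rows, so the split between Trav16 and Trav16n enters them. As a family, Trav16 was found in 32 model and 34 control cells. No interval and no value by family was computed for this measure. The n copies as a whole were seen in 29 model cells (0.958%) and 2 control cells (0.0947%), a ratio of 10.1 (2.56 to 87.5), and without Trav16n still in 13 model and 1 control cells, a ratio of 9.07 (1.36 to 385). The d copies were seen in 10 model and 11 control cells (ratio 0.634, 0.242 to 1.65), and rows with neither letter in 108 model and 83 control cells (0.908, 0.676 to 1.22). This split by letter was chosen after the values were seen.

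**Figure D3:**
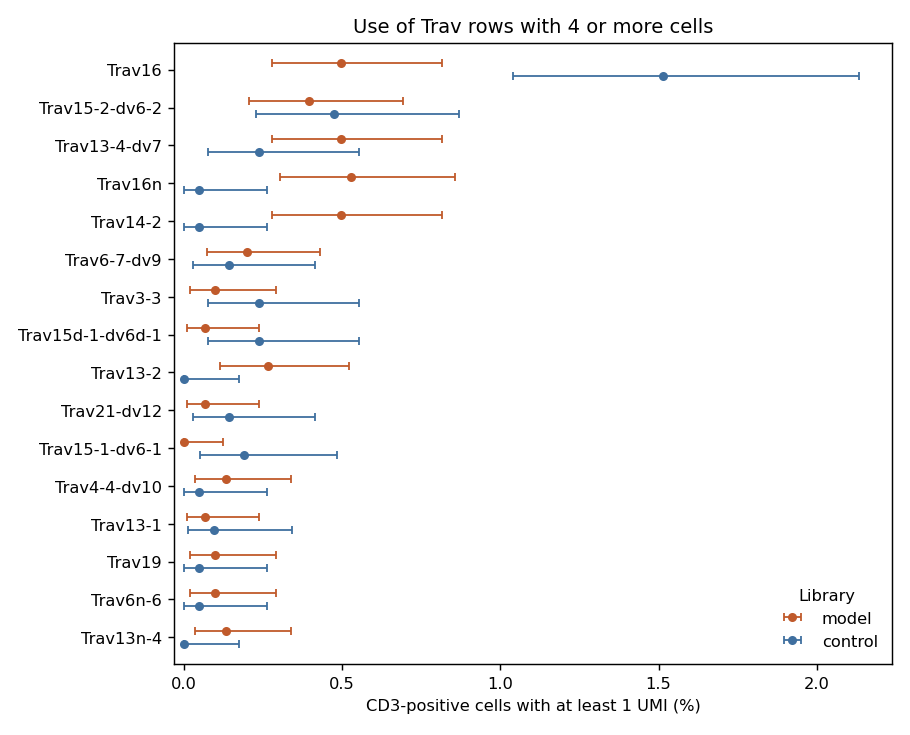
Share of CD3-positive cells with at least 1 UMI of each Trav row that had 4 or more cells over both libraries, in percent, for the model library (orange, upper) and the control library (blue, lower), with exact 95% intervals. Trav16 lies at 0.496% in model and 1.52% in control, while Trav16n and Trav14-2 were found in 16 and 15 model cells and in 1 control cell each.

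Near-identical copies limit what a row can show. Of all stretches of 90 bases along a row's annotated transcripts, the median share found in no other Trav or Trbv row was 0% over the 34 n copies, 0.202% over the 40 d copies and 91.4% over the 56 rows with neither letter. The 62 Trav rows with under 50% of such stretches held 11 UMIs in model and 8 in control, and the other 68 Trav rows held 153 in model and 111 in control. The share was 65.0% for Trav16n, above the median of the n copies. It was 77.3% for Trav16 and 90.3% for Trav14-2, below the median of the rows with neither letter. These shares are of the GRCm38 reference, not of these mice. The part of read assignment between copies in the differences above was not tested. All 35 Trbv rows had 50% or more, so beta use is little touched.

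Cells with Trdc carried Trbv UMIs less often than the other CD3-positive cells. Trbv was seen in 30 of 1234 model cells with Trdc (2.43%) and in 101 of 1793 without (5.63%), a ratio of 0.432 (0.277 to 0.654). In control it was seen in 21 of 810 cells with Trdc (2.59%) and in 62 of 1302 without (4.76%), a ratio of 0.544 (0.315 to 0.906). Thinned to 1000 UMIs with the classes assigned anew, the ratio was 0.378 in model (0.141 to 0.867) and 0.391 in control (0.117 to 1.04). The control interval includes 1. In control the cells with Trdc were deeper, with a median of 3247.5 UMIs against 2209 in those without, while in model the medians were 2862 with Trdc and 2898 without. Trbc1 or Trbc2 was in 85.3% of model and 83.6% of control cells with Trdc, and 28 of the 30 Trbv-positive model cells with Trdc and 20 of the 21 such control cells also had Trbc1 or Trbc2. In model, Trbv16 was seen in 0 cells with Trdc and 14 without (ratio 0, upper bound 0.438), and Trbv19 in 3 with Trdc and 16 without (ratio 0.272, 0.051 to 0.952). In control the intervals included 1 for both, with Trbv16 in 2 cells with Trdc and 9 without (0.357, 0.038 to 1.73) and Trbv19 in 3 with and 7 without (0.689, 0.115 to 3.02). Other model rows leaned the other way within counting error, with Trbv29 in 5 cells with Trdc and 2 without (3.63, 0.595 to 38.1) and Trbv17 in 4 with and 1 without (5.81, 0.575 to 286).

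Trav detection with and without Trdc differed within counting error, but the segments read there were not the same. It was found in 50 model cells with Trdc (4.05%) and 95 without (5.30%), a ratio of 0.765 (0.532 to 1.09), and in 42 control cells with Trdc (5.19%) and 54 without (4.15%), a ratio of 1.25 (0.815 to 1.91). Of the Trav-positive model cells, a segment with dv in its symbol was in 28 of 50 with Trdc (56.0%) and 14 of 95 without (14.7%), a ratio of 3.80 (1.94 to 7.81). In control it was in 23 of 42 with Trdc (54.8%) and 8 of 54 without (14.8%), a ratio of 3.70 (1.60 to 9.56). Thinned to 1000 UMIs with the classes assigned anew, the log2 ratio was 1.49 in model (-0.31 to 3.33) and 0.58 in control (-2.88 to 3.39). In model this rests on 7 of 15 cells with Trdc and 6 of 36 without, and in control on 2 of 6 and 4 of 18. Both intervals include 0. The shares of the 2 libraries lay close together, a likeness that was not tested.

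The dv segments with most cells stood mainly with Trdc. The Trav15 family, whose rows seen here all carry dv6 in the symbol, stood almost wholly with Trdc, in 13 of its 14 model cells and 17 of its 19 control cells. Within it, Trav15-2-dv6-2 was in 11 model cells with Trdc and 1 without, a ratio of 16.0 (2.32 to 688), and in 9 control cells with Trdc and 1 without, a ratio of 14.5 (2.00 to 634). Trav13-4-dv7 was in 12 model cells with Trdc and 3 without, a ratio of 5.81 (1.57 to 32.1), and in 4 control cells with Trdc and 1 without. Of the rarer ones, Trav4-4-dv10 was in 4 model cells and 1 control cell, none with Trdc. Trav6-7-dv9 had Trdc in 2 of its 6 model cells and 1 of its 3 control cells. Trav21-dv12 had Trdc in 1 of its 2 model cells and 2 of its 3 control cells. Trav15d-1-dv6d-1 was seen in 2 model and 5 control cells, and Trav15-1-dv6-1 in 0 model and 4 control cells, of which all but 1 control cell had Trdc. Trav16d-dv11 was seen in 1 model and 1 control cell, neither with Trdc, and the other 2 of the 10 dv rows were not seen.

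Trav16 carries no dv in its symbol, yet it was common in cells with Trdc. It had Trdc in 11 of its 15 model cells and 16 of its 32 control cells, which is 0.891% of model and 1.98% of control cells with Trdc, and 0.223% of model and 1.23% of control cells without. In model its ratio of cells with Trdc to those without was 3.996 (1.18 to 17.2) and in control 1.61 (0.753 to 3.43). The remaining Trav16 cells were 4 Cd8aa cells in model, and 6 Cd8aa, 8 Cd8ab, 1 none and 1 other cell in control. Trav16n, which differs from it at 4 of the 300 positions printed, had Trdc in 0 of its 16 model cells (ratio 0, upper bound 0.377); 14 of them were Cd8aa and 2 none.

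Trav14-2 cells resembled Trav16n cells in class. Of its 15 model cells 12 were Cd8aa, 1 had Trdc, 1 was Cd4 and 1 none. Trbc1 was seen in 0 of these 15 cells (interval up to 21.8%), Trbc2 in 13, while Trbc1 was in 326 of the 815 Cd8aa model cells (40.0%, 36.6 to 43.5) and in 7 of the 16 Trav16n model cells. Klre1, a killer cell lectin-like receptor, was in 5 of the 15 Trav14-2 cells, 6 of the 16 Trav16n cells and 29.6% of Cd8aa model cells. Fcer1g, a signalling adaptor of intraepithelial and natural killer cells, was in 14 of the Trav14-2 cells and 15 of the Trav16n cells, and in 83.2% of Cd8aa model cells. Cd5, a surface inhibitor of receptor signalling that conventional T cells carry, was in 0 of either and in 1.84% of Cd8aa model cells. Cd28, a costimulatory receptor of conventional T cells, was in 2 of the 15 Trav14-2 cells, 1 of the 16 Trav16n cells and 2.70% of Cd8aa model cells. These genes were chosen after their values were seen.

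**Figure D4:**
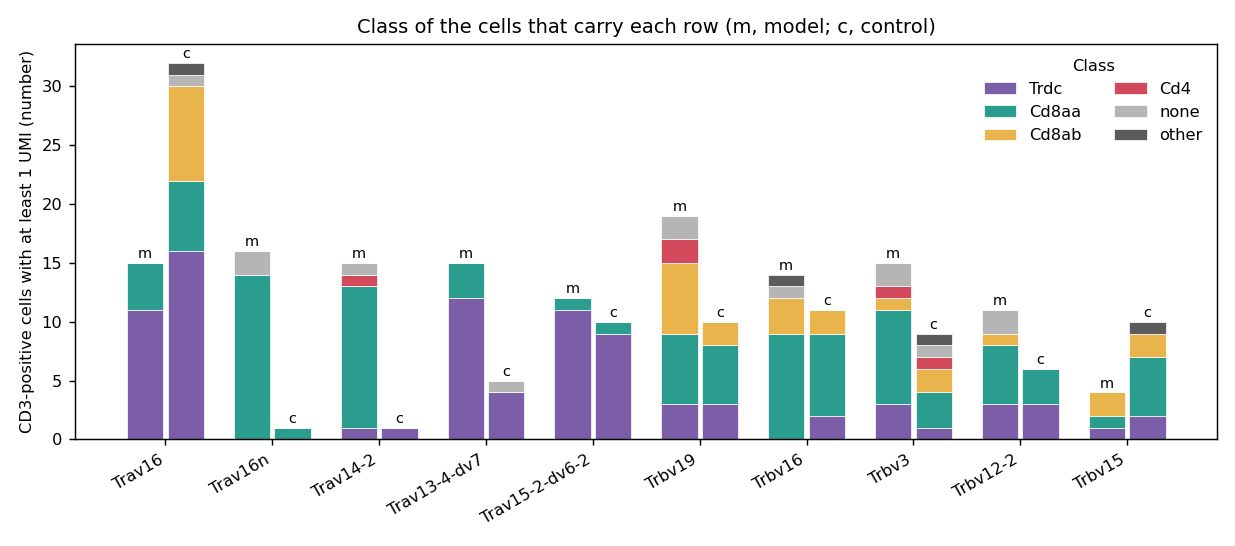
Number of CD3-positive cells with at least 1 UMI of each of 10 rows, stacked by class, with the model bar (m) left of the control bar (c). Trav15-2-dv6-2 and Trav13-4-dv7 stand mostly in cells with Trdc, Trav16n and Trav14-2 mostly in Cd8aa model cells, and the Trbv rows are spread over the classes.

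Between the coreceptor classes no variable row reached 20 positive cells, so no row could be called for Cd4 or Cd8aa cells against Cd8ab cells in either library. By the rule with 20 cells, 8.06% of genes in model and 17.8% in control were called between Cd8aa and Cd8ab cells, and 4.70% in model and 3.37% in control between Cd4 and Cd8ab cells. With 10 cells, where 7.46% of genes in model and 15.2% in control were called between Cd8aa and Cd8ab cells, 4 rows could be tested in model and 1 in control. Trbv19 was called in model, in 6 of 815 Cd8aa cells (0.736%) and 6 of 205 Cd8ab cells (2.93%), a ratio of 0.252 (0.067 to 0.941). Trav16 was called in control, in 6 of 418 Cd8aa cells (1.44%) and 8 of 103 Cd8ab cells (7.77%), a ratio of 0.185 (0.053 to 0.607). Trav16n, in 14 Cd8aa and 0 Cd8ab model cells, Trav14-2, in 12 Cd8aa and 0 Cd8ab model cells, and Trbv16, in 9 Cd8aa and 3 Cd8ab model cells, had intervals that included 1.

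Both chains were read in the same cell only 7 times in model and 6 times in control, a ratio of 0.814 (0.234 to 2.93), and each of these cells held a pair of its own. In model, 6 of the 7 were Cd8aa cells: Trav16 with Trbv1, Trav16n with Trbv24, Trav6-7-dv9 with Trbv13-1, Trav14-2 with Trbv20, Trav6n-6 with Trbv2, and Trav13-4-dv7 with Trbv16. The other, Trav13-4-dv7 with Trbv4, had Trdc. In control, Trav6d-5 with Trbv20, Trav12-2 with Trbv26 and Trav7-1 with Trbv19 were in Cd8ab cells, Trav14-1 with Trbv19 and Trav16 with Trbv24 in Cd8aa cells, and Trav9-1 with Trbv3 in a cell of the class other. Cells with 2 rows of 1 chain were also rare, with 3 for Trav and 1 for Trbv in model and 2 for Trav and 2 for Trbv in control. At this depth no pair repeated, and repeated pairs could not have been seen in most cells.

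The genes that carry the receptor to the surface and relay its signal were read alongside. All 25 genes of the receptor complex and proximal signalling list were tested between model and control CD3-positive cells and 0 were called. Over all 14658 genes tested 4.75% were called. The median log2 ratio of model to control was 0.30 for the list and 0.13 for all genes tested. Cd3d, Cd3e and Cd3g are in this list and also choose the cells, so their shares are bound by that choice; over the other 22 genes 0 were called and the median was also 0.30. Lck, the kinase that starts receptor signalling, was in 46.6% of model and 40.9% of control cells, and Ptprc, the CD45 phosphatase of white blood cells, in 83.2% of model and 67.5% of control cells. From a control share as high as that of Ptprc a 1.5-fold rise cannot be reached. Genes of receptor recombination had few UMIs: Rag1 and Rag2, the recombinase, had no UMI, Dntt, which adds bases at the joints, had 0 UMIs in model and 2 in control, and Ptcra, the partner of the beta chain before the alpha chain is made, had 22 in model and 10 in control.

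RNA of other cell types differed between the CD3-positive cells of the libraries. Muc2, the goblet cell mucin, was in 19.0% of model and 40.3% of control cells, and Vil1, an enterocyte microvillus protein, in 20.7% of model and 33.1% of control cells. Over all genes tested, 2.25% were called higher and 2.50% lower in model. Of the 6 enterocyte genes 0 were called higher and 1 lower. Both goblet genes were called lower, and 2 of 4 myeloid genes were called lower. The enterocyte list summed to 70.5 per 10000 UMIs in model and 75.5 in control, and the goblet list to 13.1 in model and 29.4 in control. The myeloid list summed to 4.42 in model and 5.15 in control, and the plasma cell list to 56.6 in model and 68.9 in control. Of the 3 plasma cell genes tested 0 were called. Of the 3 B cell genes tested 1 was called higher: Ms4a1, in 22 model and 0 control cells. Ncr1, which marks natural killer cells, was in 4 model and 2 control cells, too few to be tested. The natural killer or innate lymphoid list had no called gene among its 4 tested. The part of these RNAs in the differences between libraries above was not tested.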

How the data were processed

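The files deposited by the authors give raw UMI counts for each gene and barcode, with no normalisation. Per the file headers the program was Cell Ranger 7.0.1; per the submitters' processing notes the version was 4.0 and the genome build GRCm39. The gene annotation, the setting for intronic reads and the chemistry (3' or 5') were not given in the sources used here. Whether the variable end of a receptor transcript is reached depends on that chemistry, and a segment without UMIs is not shown to be unused.

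A barcode was kept as a cell if it had 500 UMIs or more from 200 genes or more and a mitochondrial share of 25% or less. No doublets were removed; leaving out the 8% of CD3-positive cells with the most UMIs was an alternative. Shares carry exact Clopper-Pearson 95% intervals, and ratios of shares the exact conditional binomial interval of 2 counts (scipy 1.17.1, numpy 2.4.6, pandas 2.3.3, Python 3.11.15). The ratio intervals were tested on simulated counts. The simulated shares mostly lay above those of single variable rows, so the intervals were not tried at shares that low. For the ratio of Trav13-2 a count of 0 was replaced by 3 counts. Limits on shares of 0 are exact upper bounds. UMIs were thinned to 1000 per cell for a comparison at equal depth. Thresholds for a called row were 1.5-fold, an interval excluding 1 and 20 positive cells. Values in the figures were drawn with matplotlib 3.10.9.

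Rows named are the 10 Trbv and 10 Trav rows with the highest mean share of CD3-positive cells, called rows, segments of invariant T cells, dv rows, Trbv1, Trbv2 and Trbv31, and the pairs. The rows, gene lists and classes were chosen with earlier results of these data known. The CD4 helper or regulatory list had 0 of its 4 tested genes called, and the T cell and intraepithelial lists 0 of 7 and 0 of 6. Over all 14658 genes tested 4.75% were called. Under 1.5-fold, the intervals of all T cell genes lay above 1. So did those of the intraepithelial genes except Gzma (ratio 1.03, 0.968 to 1.10). In the CD4 list those of Icos and Ctla4 lay above 1, and those of Cd4 and Cd40lg included 1.

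Sequences, annotated types and stretches shared between rows came from GENCODE transcripts on GRCm38, matched by Ensembl gene ID for 165 of 165 rows, since no GRCm39 annotation was used here.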

Additional observations from a re-analysis of the deposited data

Results flagged for a closer look

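Variable-segment UMIs outside the cells compared were listed because they lie in data the comparisons did not use. Barcodes of the model library that failed the cell filter held 11 Trav and Trbv UMIs, in 10 of 3555 such barcodes (0.281%, exact interval 0.135 to 0.517), and those of the control library held 2 UMIs in 2 of 2930 barcodes (0.0683%, 0.00827 to 0.246).

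CD3-negative cells of the control library held 9 Trav and Trbv UMIs in 9 of 5217 cells, 6 of Trav and 3 of Trbv, and 3 of the 6 Trav UMIs were in the 422 cells with at least 100 UMIs of Igha plus Jchain (0.711%, 0.147 to 2.06). In the model library 1 of 4886 CD3-negative cells held such a UMI, and 0 of the 555 cells of the same plasma cell gate (exact upper bound 0.662%).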

How the results depend on the processing

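No paired analysis was possible because each group has 1 library and the groups share 1 replicate number. Of 64 alternative values, 50 stayed within the result's counting interval (or, for counts of rows, within 1.5 times) and 14 moved further. The log2 ratio of model to control was 0.08 for Trav and 0.14 for Trbv detection. When a positive cell needed at least 2 UMIs it was -0.52 for Trav and -1.17 for Trbv. In cells without Epcam and with under 10 UMIs of Igha plus Jchain it was -0.25 for Trav and -0.57 for Trbv (interval -1.14 to 0.02). It was also below 0 for both chains at a mitochondrial limit of 10% and with at least 2 CD3 UMIs, and for Trbv after thinning. Under the remaining settings it stayed above 0. Each interval included 0, and the cause was not tested. The log2 ratio of Trbv detection with Trdc over without, -0.88 in control, was -1.67 at a mitochondrial limit of 10%, -1.67 with at least 2 CD3 UMIs, -2.02 in cells without Epcam and with under 10 UMIs of Igha plus Jchain, and -0.12 with at least 2 UMIs per positive cell. The log2 ratio of the dv share with Trdc over without was 0.58 in control (interval -2.88 to 3.39) after thinning to 1000 UMIs, against 1.89, and 0.58 in model with at least 2 UMIs per positive cell, against 1.93. Called rows between model and control numbered 3 for Trav and 1 for Trbv with 10 positive cells, and 2 as Trav family sums, against 1 for Trav and 0 for Trbv. Trav16n and Trav14-2 reached the minimum of 10 cells only through the model library, where they were high. The called families, Trav13 and Trav14, were higher in model, while the Trav16 row was called lower and the Trav16 family was not called. Between Cd8aa and Cd8ab cells 1 row was called in model and 1 in control with 10 positive cells, against 0. Settings under which no row reached the minimum of positive cells, or in which a count was 0, gave no value; for Cd4 against Cd8ab cells this was so under every alternative. Depth limits these results: most rows had under 20 cells, and thinning to 1000 UMIs left Trav in 51 of 2400 model and 24 of 1468 control CD3-positive cells.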
